A study of Homo sapiens with 9 samples.

Results

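The genes described here carry out the uptake, storage, release and sensing of iron, and RNA levels of 10 of them were followed across CRISPR-edited cancer cells. They were the ferritin chains FTH1 and FTL, the importers and reductase TFRC, SLC11A2 and STEAP3, the exporter SLC40A1, the heme-degrading enzyme HMOX1, the ferritin receptor NCOA4 and the iron regulatory proteins ACO1 and IREB2. They make up 10 of the 78894 gene identifiers listed for every sample. Of these 10, 9 were among the 17100 genes with a value of at least 1 TPM (the length-scaled share of a transcript in its library) in at least 2 distinct libraries, and SLC40A1 was below that level. The genes were chosen by name with earlier results of the same libraries known, including the spread of FTH1 within a group. Their own levels are therefore given as a description, and no p-value is given for any of the 10.

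All samples were CAL27, an established tongue carcinoma line of squamous type, used in a study of enhancer function in head and neck cancer. The groups were Control (3 samples) and the knockout groups A2ko, A8ko and C9ko (2 samples each), all grown in DMEM with 10% FBS and, by the labels, without treatment. The edited sequence of each knockout, and whether its cells were clonal, are not in the labels, which do not say either that replicates came from separate cultures. The A2ko pair held identical values, as did the A8ko pair, so each pair counts as 1 library, and 7 distinct libraries remain: 3 Control, 1 A2ko, 1 A8ko and 2 C9ko. Differences of A2ko and A8ko from Control thus have no replicate check.

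Values are TPM, a share of the library per unit of transcript length, so levels of different genes can be compared, but the depth behind them is unknown. Genes at 1 TPM or more numbered 15556 to 16716 per library, and mitochondrially encoded genes took 17.9% to 26.9% of all TPM. All 5 epithelial markers were present: TP63, EPCAM and CDH1 were at 100 TPM or more in every library, and the basal keratins KRT5 and KRT14 were abundant but below Control in every knockout. KRT5 was 8716 to 9147 TPM across Control, and A2ko had 3081, A8ko 4237 and the C9ko libraries 5428 and 5232. KRT14 was 3549 to 4286 TPM across Control, and A2ko had 313, A8ko 867 and the C9ko libraries 1283 and 1247. The 7 markers of fibroblasts, leukocytes and endothelial cells summed to 35.8 to 41.7 TPM across Control, 51.1 for A2ko, 73.7 for A8ko and 24.6 to 25.7 across C9ko. Most of that sum was CD68, with 27.8 to 32.2 TPM across Control, 35.4 for A2ko, 66.3 for A8ko and 14.1 and 14.3 for C9ko. COL1A1 was 5.82 to 6.81 TPM across Control, and A2ko had 13.4, A8ko 5.56 and the C9ko libraries 8.07 and 8.61. The defining leukocyte marker PTPRC stayed at or below 0.02 TPM. The part of other cells in the results was not tested. In bulk RNA, fewer cells with a transcript and less of it per cell cannot be told apart. Differences are on the log2(TPM + 1) scale. The median of all tested genes lay above Control in A2ko (0.12), A8ko (0.09) and C9ko (0.11). After the libraries were rescaled by the median of ratios to a common reference, that shift was -0.03, 0.02 and 0.00.

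Cells take up transferrin-bound iron through the transferrin receptor, reduce it in endosomes and pass it through a divalent metal transporter into the cytosol, where ferritin, a hollow shell of heavy and light chains, stores what is not used. Ferritin iron is released when NCOA4 carries the shell to the lysosome, and heme iron is released by heme oxygenase. When iron is scarce, the iron regulatory proteins ACO1 (IRP1) and IREB2 (IRP2) bind a short RNA hairpin, the iron-responsive element (IRE). Bound in a 5′ untranslated region (UTR), they block translation, as for ferritin. Bound in the 3′ UTR of the transferrin receptor, they protect the transcript from decay. Much of this control acts on translation and on protein, which these RNA levels do not measure.

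The hairpin letters are shown because they connect the storage, export and uptake genes of the set. GENCODE release 29 protein-coding transcripts (GRCh38) were searched on the sense strand for an unpaired C, then 5 bases, the loop CAGTGN, and 5 bases pairing with the former, with G-T pairs allowed. The pattern was found in 4 of the 10 genes, in 7 loops, against 291 of 19702 genes with a protein-coding transcript (1.48%). Ferritin and the transferrin receptor are known carriers of the IRE, so these shares are not a test. Matches in the 10 genes had to lie at least 6 bases from a transcript end, a limit not set for the count over all genes. In each 29-base stretch the capitals mark the unpaired C and the loop. A match describes letters only. No match in the other 6 genes says only that no stretch met this strict pattern, and does not show that they lack an IRE. A hairpin with another loop or an unpaired base in its stem would be missed, also in the 4 genes listed.
FTH1 5′ UTR, chr11:61967574-61967602, minus strand: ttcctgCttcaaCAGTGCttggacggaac
FTL 5′ UTR, chr19:48965335-48965363, plus strand: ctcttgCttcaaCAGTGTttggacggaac
SLC40A1 5′ UTR, chr2:189580661-189580689, minus strand: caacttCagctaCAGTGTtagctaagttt
TFRC 3′ UTR, chr3:196050979-196051007, minus strand: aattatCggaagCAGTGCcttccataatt
TFRC 3′ UTR, chr3:196050575-196050603, minus strand: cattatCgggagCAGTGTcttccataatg
TFRC 3′ UTR, chr3:196050510-196050538, minus strand: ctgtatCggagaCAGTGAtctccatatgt
TFRC 3′ UTR, chr3:196050463-196050491, minus strand: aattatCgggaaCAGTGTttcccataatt

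Across the 10 genes, TFRC, STEAP3, HMOX1 and ACO1 were higher in every knockout library than in every Control library, and none was lower in all of them. The same held for 17.0% of all tested genes upwards and 4.61% downwards. After rescaling by the median of ratios TFRC and HMOX1 kept that position, and STEAP3 and ACO1 did not. Without mitochondrially encoded genes TFRC, HMOX1 and ACO1 kept it, and STEAP3 did not. Taken by group, 6 of the 10 genes lay above and 1 below the Control range in A2ko (50.4% and 26.3% of tested genes). In A8ko, 7 lay above and 1 below (46.9% and 26.4%). In C9ko both libraries lay above the range for 6 and below it for none (41.1% and 16.4%). Shares of this size were common among all genes, so the counts say little about the iron genes as a set. A difference of at least 1 log2 unit outside the Control range was found for HMOX1 in A2ko, where 3.54% of tested genes were that much higher and 1.53% lower. It was found for FTL in A8ko, where 2.05% were higher and 2.68% lower. In C9ko no member reached it (3.33% of tested genes upwards, 1.78% downwards). The limma model across all genes called TFRC, SLC11A2, HMOX1 and ACO1 higher in C9ko, beside 22.0% of tested genes called higher and 7.42% called lower. Because the members were chosen with this contrast known, nothing is read from that count.

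**Figure D1:**
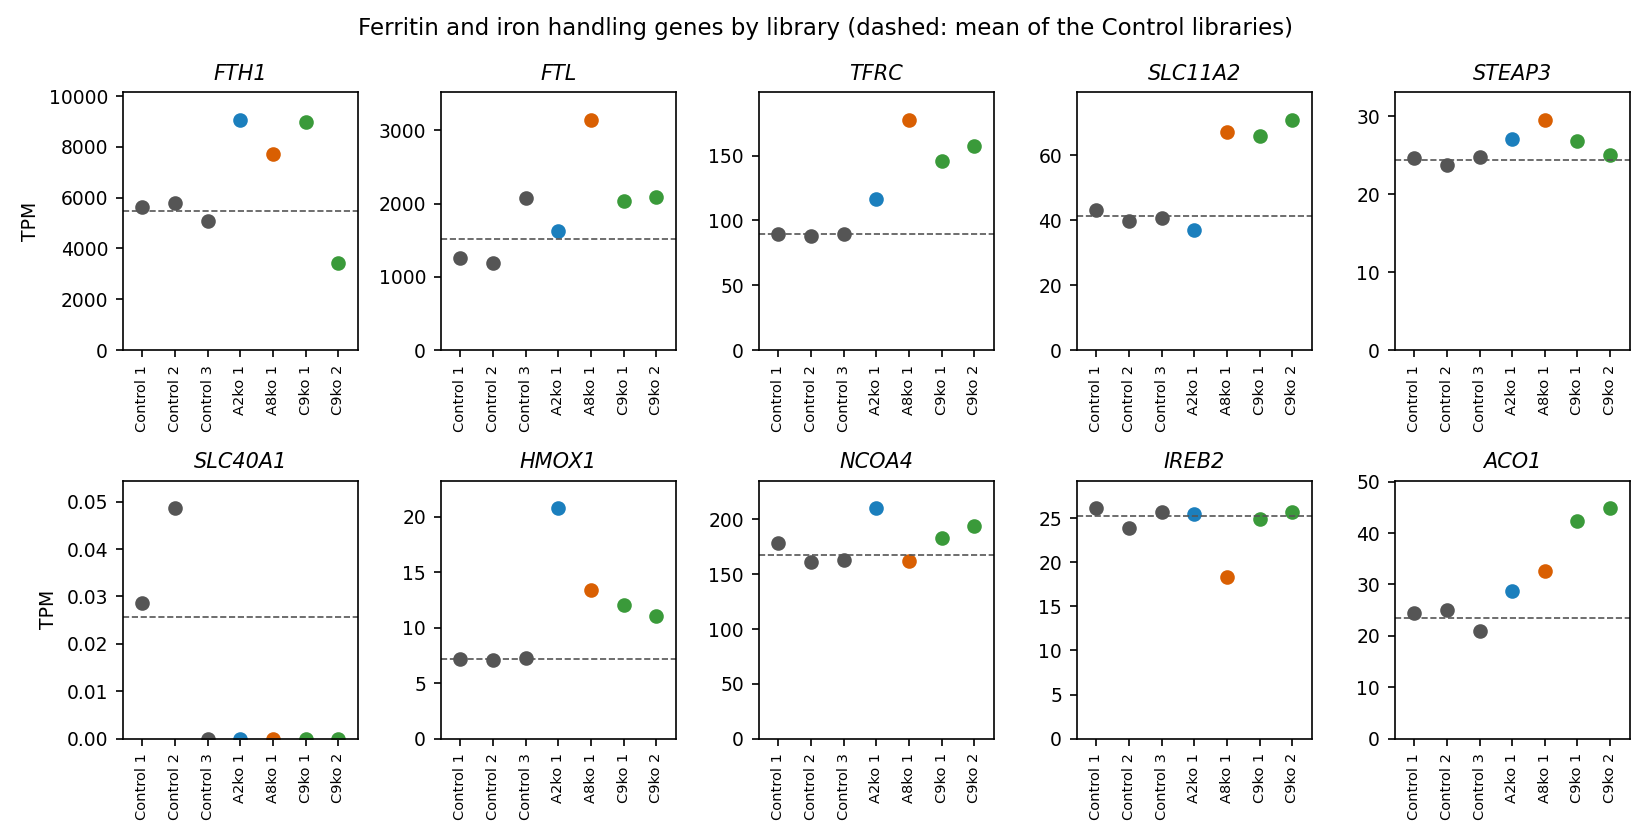
TPM (vertical axes, each from 0) of the 10 iron genes in the 7 distinct libraries. Each point is 1 library and the dashed line is the mean of the 3 Control libraries; TFRC, HMOX1 and ACO1 lie above every Control library in all 4 knockout libraries, whereas the C9ko libraries lie on opposite sides of Control for FTH1.

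FTH1 (ENSG00000167996, chr11:61959718-61967660, minus strand), the ferritin heavy chain with the ferroxidase centre, was the most abundant of the 10 transcripts. It stood at 5619, 5779 and 5067 TPM in the Control libraries, a mean of 5488 ± 373 (SD, n = 3). The A2ko library had 9072 TPM, A8ko had 7739, and the first and second C9ko libraries had 8969 and 3419. A2ko, A8ko and C9ko 1 were above every Control library, and C9ko 2 was below all of them. The log2 difference from Control was 0.73 in A2ko and 0.50 in A8ko, and 0.56 and 0.41 after rescaling by the median of ratios. In C9ko the mean difference of 0.02 (-0.11 after rescaling) averaged 0.71 in the first library and -0.68 in the second, and the libraries lay on opposite sides of Control. The C9ko libraries lay 1.39 log2 units apart, and the SD within C9ko was 0.98 against a median of 0.06 for the 200 tested genes nearest in level. By that gap FTH1 ranked 6 of the 1562 genes with a C9ko mean of at least 100 TPM. Within Control the SD was 0.10, beside a median of 0.08 for the genes of like level.

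The reads of FTH1 may not all be separable from those of BEST1, a chloride channel gene (ENSG00000167995, chr11:61949821-61965515, plus strand) on the opposite strand. In GENCODE release 29 the exons of both genes share 1267 bases, 62.4% of the FTH1 exonic length of 2030 bases. The libraries were strand-specific by the labels, but the use of strand by the counting tool is not given in the sources used here. BEST1 stood at 621, 519 and 611 TPM in Control; A2ko had 836, A8ko 1038 and the C9ko libraries 9.34 and 568. The C9ko library with the higher FTH1 thus had almost no BEST1. The sum of both genes was 6240, 6298 and 5678 TPM in Control; A2ko had 9908, A8ko 8777 and the C9ko libraries 8978 and 3987, which left the C9ko libraries on opposite sides of Control. TPM is scaled by length, and the genes have 2030 (FTH1) and 8930 (BEST1) exonic bases. A sum of TPM therefore does not restore reads moved from one gene to the other. BEST1 lay above the Control range in A2ko and A8ko, far below it in C9ko 1 and within it in C9ko 2. The part of BEST1 in the FTH1 values was not tested, and FTH1 levels in all groups are uncertain for this reason. The other genes that overlap a member were ARL8BP1 and RNU7-18P in TFRC, RNU6-87P in SLC11A2, STEAP3-AS1 in STEAP3 and ENSG00000259474 in IREB2, none above 1.91 TPM.

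FTL (ENSG00000087086, chr19:48965301-48966878, plus strand) encodes the light chain, which has no ferroxidase centre and aids formation of the iron core. It stood at 1263, 1195 and 2080 TPM in Control (1513 ± 492, SD, n = 3); A2ko had 1626, A8ko 3147 and the C9ko libraries 2037 and 2088. A8ko was above every Control library by 1.10 log2 units on the mean, and 1.02 after rescaling. A2ko and the C9ko libraries lay inside or, for C9ko 2, just above the Control range, whose top was Control 3, with mean differences of 0.15 (-0.02 after rescaling) and 0.49 (0.37). FTL spread widely within Control and little within C9ko, unlike FTH1. Its SD was 0.44 within Control, where the genes of like level had a median of 0.08, and 0.03 within C9ko.

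The balance of heavy to light chain transcripts spread widely within groups. The ratio of FTH1 to FTL TPM was 4.45, 4.84 and 2.44 in Control; A2ko had 5.58, A8ko 2.46 and the C9ko libraries 4.40 and 1.64. A2ko was above and C9ko 2 below all Control libraries, and A8ko and C9ko 1 lay within the Control range. The sum of both chains was closer among Control libraries, at 6882, 6974 and 7147 TPM. It was 10699 TPM in A2ko, 10886 in A8ko, 11006 in C9ko 1 and 5506 in C9ko 2. Both chains together made up 0.688% to 0.715% of all TPM in Control and 1.07% to 1.10% in the 3 libraries above it. These ratios and sums rest on the FTH1 values, so the uncertainty from BEST1 applies to them too.

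**Figure D2:**
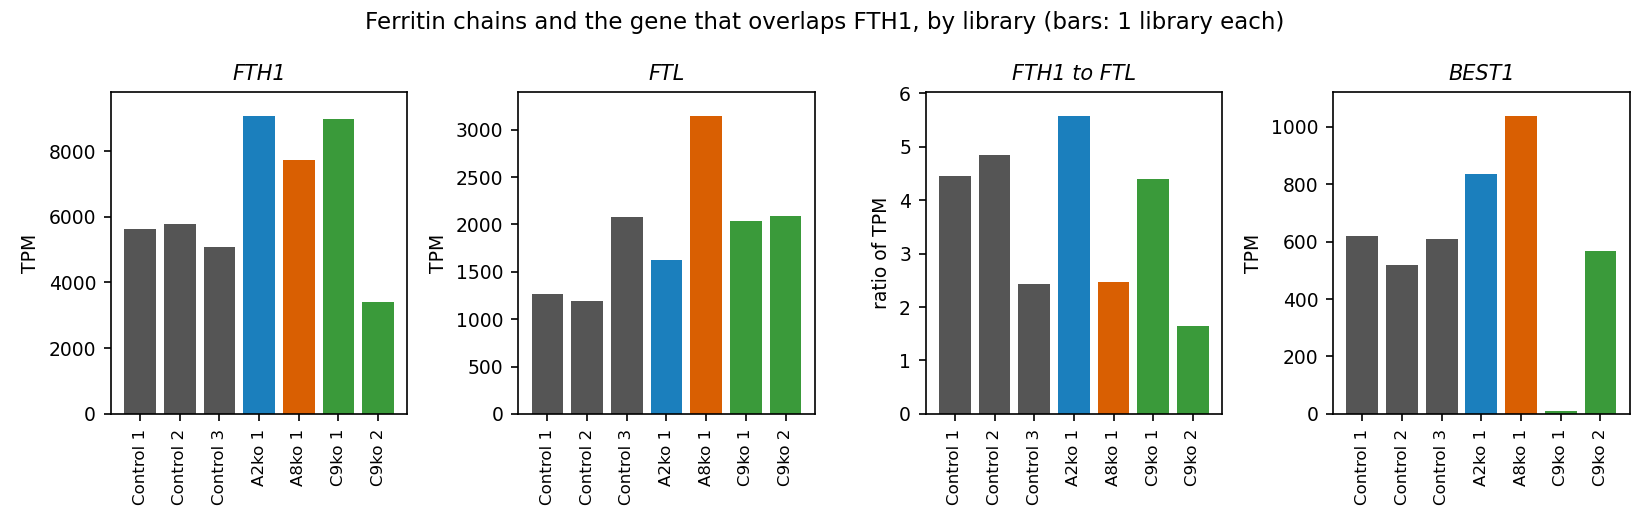
TPM of FTH1, FTL and BEST1 and the FTH1 to FTL ratio in the 7 distinct libraries (1 bar per library, axes from 0, no error bars). In C9ko 1, FTH1 stood at 8969 and BEST1 at 9.34 TPM; in C9ko 2 they stood at 3419 and 568.

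Processed pseudogenes of ferritin are many and can share reads with their parents. Of 25 FTH1 pseudogene symbols, 16 had a value above 0 and 8 reached 1 TPM in a library (FTH1P2, FTH1P7, FTH1P8, FTH1P10, FTH1P11, FTH1P12, FTH1P16 and FTH1P20). The highest was FTH1P7 with 4.83 TPM in A2ko. The sum of all 25 was 13.1 to 16.4 TPM in Control; A2ko had 27.2, A8ko 20.6 and the C9ko libraries 20.9 and 18.2, at most 0.53% of all FTH1 TPM. Of 16 FTL pseudogene symbols, FTLP14 alone reached 1 TPM. With the pseudogene values added, the FTH1 log2 differences were 0.73 in A2ko, 0.50 in A8ko and 0.02 in C9ko. Those of FTL were 0.15, 1.10 and 0.49. These were the same to 2 decimals as without pseudogenes, whose sums were too small to change them much. How reads that match several places were handled is not given in the sources used here.

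TFRC (ENSG00000072274, chr3:196027183-196082189, minus strand), the transferrin receptor, varied little within Control and was higher in every knockout. It stood at 89.8, 88.0 and 89.7 TPM in Control (89.2 ± 0.984, SD, n = 3); A2ko had 116, A8ko 178 and the C9ko libraries 146 and 157. No knockout library overlapped Control. The log2 differences were 0.38 (A2ko), 0.99 (A8ko) and 0.76 (C9ko), and rescaling by the median of ratios gave 0.21, 0.90 and 0.64.

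SLC11A2 (ENSG00000110911, chr12:50979401-51028566, minus strand) encodes DMT1, the transporter that moves ferrous iron from the endosome or the gut lumen. It stood at 43.3, 39.9 and 40.7 TPM in Control (41.3 ± 1.77, SD, n = 3); A2ko had 36.9, A8ko 67.2 and the C9ko libraries 66.1 and 71.0. A8ko and C9ko were above every Control library, with differences of 0.69 and 0.72, and A2ko was below them all, with -0.16. The same sides were found after rescaling (0.61, 0.60 and -0.32) and without mitochondrially encoded genes.

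STEAP3 (ENSG00000115107, chr2:119223831-119265652, plus strand), a ferrireductase of endosomes, differed least among the import genes. It stood at 24.6, 23.7 and 24.8 TPM in Control; A2ko had 27.1, A8ko 29.6 and the C9ko libraries 26.8 and 25.1. All knockout libraries were above Control as deposited, by 0.15, 0.27 and 0.08 in log2. After rescaling by the median of ratios A2ko was below the Control range (-0.01) and C9ko straddled it (-0.03), so only the A8ko difference (0.19) kept its side.

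SLC40A1 (ENSG00000138449, chr2:189560579-189583758, minus strand), which encodes ferroportin, the known exporter of cellular iron, was close to 0 in all libraries. It was listed at 0.0286 and 0.0486 TPM in Control 1 and Control 2 and at 0 in Control 3 and in each of the 4 knockout libraries. No difference can be read at this level. HAMP, the gene of hepcidin, the hormone that degrades ferroportin, was among the 6 of 8 other genes of export and the hepcidin axis that did not reach the level tested.

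HMOX1 (ENSG00000100292, chr22:35380361-35394214, plus strand), heme oxygenase 1, which opens the heme ring and frees its iron, showed the largest difference of the 10 genes in any group mean. It stood at 7.14, 7.06 and 7.23 TPM in Control (7.14 ± 0.0849, SD, n = 3); A2ko had 20.8, A8ko 13.4 and the C9ko libraries 12.1 and 11.1. Every knockout library was above Control, with A2ko highest. The log2 differences were 1.42, 0.82 and 0.62, and 1.26, 0.75 and 0.51 after rescaling. HMOX2, the constitutive enzyme, is counted with the heme genes below.

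NCOA4 (ENSG00000266412, chr10:46005088-46030714, minus strand), the receptor that delivers ferritin to the lysosome, differed little. It stood at 179, 161 and 163 TPM in Control (168 ± 9.78, SD, n = 3); A2ko had 210, A8ko 162 and the C9ko libraries 183 and 194. A2ko (0.33) and C9ko (0.17) were above Control as deposited, and A8ko (-0.05) overlapped it. After rescaling A2ko stayed above (0.16), C9ko overlapped (0.05) and A8ko was below (-0.13).

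ACO1 (ENSG00000122729, chr9:32384603-32454769, plus strand) encodes the iron regulatory protein that serves as cytosolic aconitase when it holds an iron-sulfur cluster. It stood at 24.5, 25.0 and 20.9 TPM in Control (23.5 ± 2.28, SD, n = 3); A2ko had 28.7, A8ko 32.7 and the C9ko libraries 42.4 and 44.9. The log2 differences were 0.28, 0.47 and 0.87, with all knockout libraries above Control, and the A2ko library overlapped Control after rescaling (0.12). IREB2 (ENSG00000136381, chr15:78437431-78501456, plus strand), the iron regulatory protein that is degraded when iron is plentiful, did not follow it. It stood at 26.1, 23.9 and 25.7 TPM in Control (25.2 ± 1.19, SD, n = 3); A2ko had 25.4, A8ko 18.3 and the C9ko libraries 25.0 and 25.7. As deposited, A8ko alone left the Control range, downwards, with a difference of -0.44. After rescaling by the median of ratios all knockout libraries were below Control, with differences of -0.15, -0.52 and -0.11. Without mitochondrially encoded genes A2ko was above Control (0.03), and A8ko (-0.51) and C9ko (-0.09) were below it.

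Genes beside ACO1 on the chromosome were higher in C9ko, as ACO1 was, and genes beside IREB2 were lower in A8ko, as IREB2 was. Among the 10 nearest tested genes on each side of ACO1, the median C9ko difference was 0.55, against 0.11 for all tested genes. Of these 20 genes, 16 lay above the Control range (41.1% of all tested genes did), and limma called 14 of the 20 higher (22.0% of all). With 20 genes per side the median was 0.41. In A2ko and A8ko the genes around ACO1 had medians of 0.06 and 0.08. Around IREB2 the A8ko median was -0.39, and -0.26 with 20 genes per side. In A8ko 13 of its 20 neighbours lay below the Control range, beside 26.4% of all tested genes. In A2ko the genes around IREB2 had a median of 0.31, where IREB2 itself differed by 0.01. TFRC and HMOX1 differed more than the median of their neighbours in all 3 knockout groups. The 20 genes around TFRC had medians of 0.00, -0.09 and -0.06 in A2ko, A8ko and C9ko, beside 0.38, 0.99 and 0.76 for TFRC; with 20 genes per side they were 0.11, 0.06 and 0.08. Those around HMOX1 had medians of -0.01, 0.07 and 0.14. Those around FTL had a median of 0.38 in A2ko and 0.03 in A8ko, where FTL itself differed by 0.15 and 1.10. Around SLC11A2 the C9ko median was 0.24, and around FTH1 the A8ko median was 0.22.

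**Figure D3:**
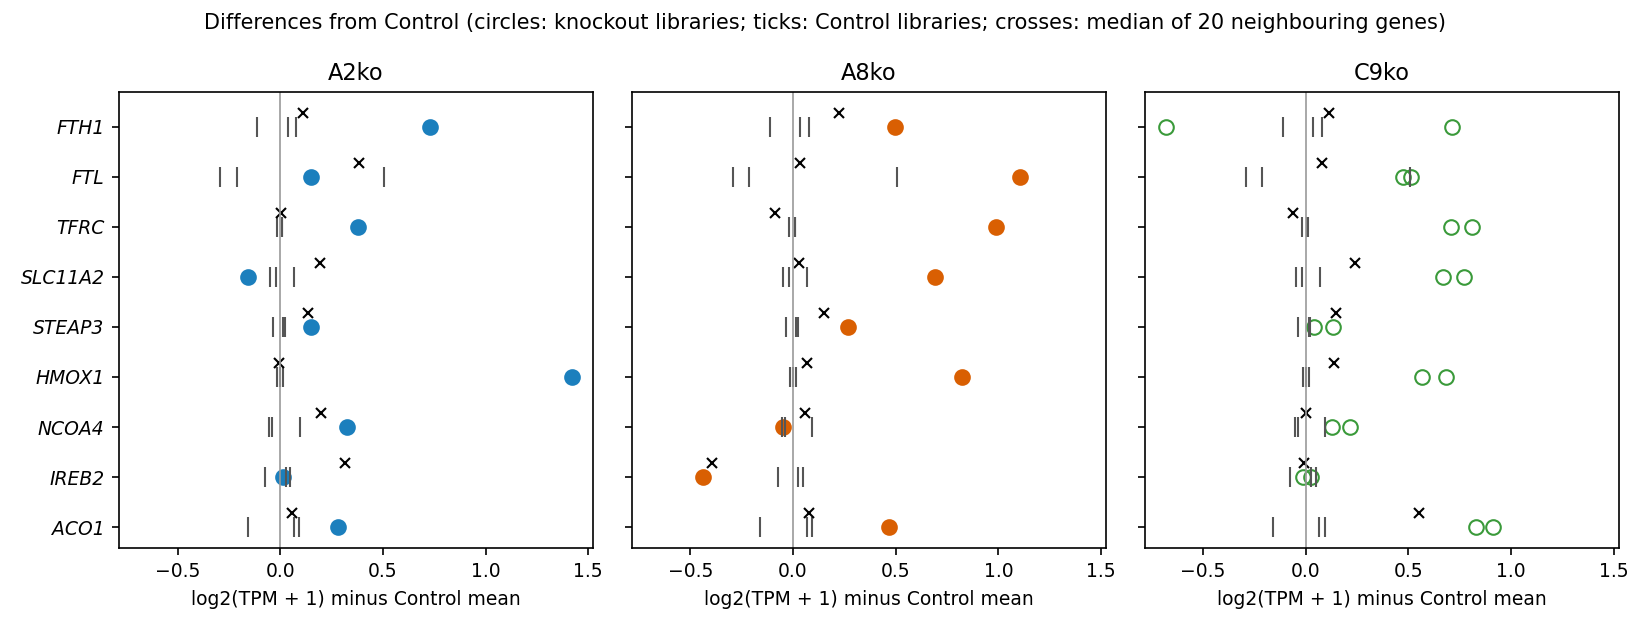
Difference from the Control mean in log2(TPM + 1) for the 9 tested iron genes in each knockout group. Circles are knockout libraries, short ticks the 3 Control libraries and crosses the median of the 20 nearest tested genes on the chromosome; the cross follows the circle for IREB2 in A8ko and in part for ACO1 in C9ko, and stays near 0 for TFRC.

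Genes with the most similar profile over the 7 distinct libraries were taken for the 5 members that spanned at least 1 log2 unit, by the root mean square (RMS) difference of centred log2 values. For TFRC these were REPIN1 (RMS difference 0.017), FADS3 (0.061) and CKLF (0.067). REPIN1 stood at 64.5, 61.3 and 64.6 TPM in Control; A2ko had 82.6, A8ko 127 and the C9ko libraries 105 and 111. For ACO1 they were ZNF267 (0.031), TP53RK-DT (0.054) and ENSG00000294983 (0.062). HMOX1 was nearest to ENSG00000291156 (0.12), KIF3C (0.13) and ITGA5 (0.13). FTL was nearest to ENSG00000254719 (0.14), METRN (0.14) and PNPLA3 (0.15), and METRN reached 38.7 TPM in A8ko against 13.7 to 19.9 in Control. For FTH1 the nearest were ENSG00000291032 (0.17), ENSG00000267277 (0.21) and RN7SL574P (0.24). ENSG00000291032 showed the same split of C9ko, with 22.2 and 6.53 TPM, beside 15.4, 14.6 and 15.0 in Control. Levels were low for ENSG00000267277 (highest value 1.44 TPM), RN7SL574P (2.73), ENSG00000254719 (1.58) and TP53RK-DT (1.39), so their profiles are less certain. The nearest of 17100 profiles were picked over 7 libraries, and no test was made of them.

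The wider iron network was followed in lists by role, chosen with earlier results of the same libraries known. The p-values of the listed genes are therefore not independent support. These lists held 88 other genes, 78 of which were tested. Limma (Benjamini-Hochberg over all 17100 genes) called 20 higher and 7 lower in C9ko, 34.6% of those tested, where 22.0% of all tested genes were called higher and 7.42% lower. The median difference was 0.07, beside 0.11 for all tested genes. Rescaled by the median of ratios, the split was 16 higher and 17 lower, and without mitochondrially encoded genes 16 and 15, so the split between higher and lower calls depended on the scale. All knockout libraries were above Control for 13 of the 78 and below for 8, against 17.0% and 4.61% of all tested genes.

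Among genes of iron uptake and reduction, 5 of 9 tested rose and 1 fell in C9ko, beside 22.0% and 7.42% of all tested genes. The counts for the list were the same under both rescalings. Its median difference was 0.49, and it was 0.37 after rescaling by the median of ratios and 0.40 without mitochondrially encoded genes. LCN2, lipocalin 2, which binds iron-loaded siderophores, stood at 46.9, 42.6 and 50.0 TPM in Control and 132 and 136 in C9ko. It rose by 1.51 ± 0.08 (SE; limma adjusted p = 4.67e-05), and it was 68.4 in A2ko and 46.3 in A8ko. CYBRD1, a plasma membrane ferric reductase, rose from 16.1, 16.1 and 18.1 TPM to 34.5 and 35.3 (1.02 ± 0.08, limma adjusted p = 0.000189). It was 41.8 TPM in A2ko and 14.4 in A8ko, so A2ko was above and A8ko below Control. LRP1, a large endocytic receptor that takes up heme bound to hemopexin, fell in C9ko from 4.95, 5.61 and 5.88 TPM to 2.20 and 2.29 (-0.99 ± 0.11, limma adjusted p = 0.000725). It was 2.12 TPM in A8ko and 13.7 in A2ko, on the other side of Control. Of the 3 tested genes of storage and iron chaperones, 0 passed the limma test and 0 had an unadjusted p under 0.05; either rescaling gave 1 lower call. Among the export and hepcidin genes CP, ceruloplasmin, was 1.40, 1.45 and 1.46 TPM in Control, 0.075 in A8ko, 2.60 in A2ko and 1.34 and 0.72 in C9ko.

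Of the other IRE transcripts and iron sensors, 1 of 4 was called, upwards (25.0%, beside 22.0% of all tested genes). EPAS1, a hypoxia-inducible transcription factor, rose in C9ko from 46.3, 41.6 and 47.2 TPM to 72.9 and 72.7 (0.68 ± 0.07, limma adjusted p = 0.000796). In heme synthesis 2 of 8 genes rose (25.0%, beside 22.0% of all tested genes), and either rescaling added 1 lower call. ALAS1, the first and rate-limiting enzyme outside red cells, rose from 28.6, 25.5 and 26.1 TPM to 46.4 and 46.3 (0.77 ± 0.07, limma adjusted p = 0.000428). UROS, uroporphyrinogen synthase, rose by 0.31 ± 0.07 (limma adjusted p = 0.0147), and that call was lost without C9ko 2, with the replicate block and with no filter on low values (limma adjusted p = 0.089, 0.108 and 0.0509; 0.0121 to 0.108 over all alternatives).

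Heme transport, breakdown and control had 2 higher and 2 lower calls among 11 tested genes, HMOX2 included. Among all tested genes 22.0% were called higher and 7.42% lower. SLC46A1, a folate transporter also described as a heme carrier, rose from 4.96, 4.83 and 5.25 TPM to 9.16 and 9.49 in C9ko (0.78 ± 0.08, limma adjusted p = 0.000721), and stood at 9.74 in A2ko and 9.83 in A8ko. SLC48A1, which moves heme out of endosomes and lysosomes, fell from 48.0, 43.7 and 44.2 TPM to 26.8 and 28.1 (-0.70 ± 0.07, limma adjusted p = 0.000595), and stood at 25.9 in A2ko and 23.6 in A8ko. Each of these carriers thus lay on 1 side of Control in all knockout libraries. BLVRB, biliverdin reductase B, which acts after heme oxygenase, fell by 0.68 on the log2 scale (SE 0.12, limma adjusted p = 0.00679).

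In mitochondrial iron and iron-sulfur cluster assembly, 6 of 25 genes rose and 1 fell, beside 22.0% and 7.42% of all tested genes. The split was 3 and 4 under either rescaling, so these counts say little about the list as a set. ISCU, the scaffold on which clusters are built, rose in C9ko from 99.1, 93.0 and 89.2 TPM to 154 and 163 (0.75 ± 0.07, limma adjusted p = 0.000409). It was 137 TPM in A8ko and 86.4 in A2ko. The mitochondrial iron importers SLC25A37 (0.60 ± 0.07, limma adjusted p = 0.000784) and SLC25A28 (0.50 ± 0.07, limma adjusted p = 0.00321) also rose. SLC25A37 was 57.2 TPM in A8ko and 31.9 in A2ko, beside 37.9 to 41.4 in Control, the same division of knockouts as for ISCU and SLC11A2.

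Ferroptosis is a cell death driven by iron and lipid peroxidation. Of its 9 listed genes, 2 rose in C9ko and 2 fell (2 and 4 after either rescaling). Among all tested genes 22.0% were called higher and 7.42% lower. CHAC1, which degrades glutathione, fell from 10.9, 8.83 and 8.93 TPM to 2.62 and 3.06 (-1.46 ± 0.12, limma adjusted p = 0.00028), and stood at 1.90 in A2ko and 4.53 in A8ko. SLC7A11, the cystine importer that feeds glutathione synthesis, fell from 5.91, 5.61 and 5.93 TPM to 2.64 and 2.66 (-0.90 ± 0.10, limma adjusted p = 0.000725), and stood at 1.90 in A2ko and 4.25 in A8ko. Both were below every Control library in all knockouts. GCH1, which starts the synthesis of the antioxidant tetrahydrobiopterin, rose by 0.66 ± 0.09 (limma adjusted p = 0.00205). HMOX1 and the ferritin chains are also targets of the oxidative stress factor NRF2. Of 7 other listed NRF2 targets, 2 rose and 1 fell in C9ko (1 and 2 after either rescaling). TXNRD1 rose by 0.35 ± 0.07 (limma adjusted p = 0.00912) and SRXN1 by 0.23 ± 0.07 (limma adjusted p = 0.047). TXNRD1 was 144 TPM in A2ko and 138 in A8ko, both below the Control range of 162 to 176. SRXN1 was 80.3 TPM in A2ko and 94.6 in A8ko, beside 85.5 to 89.1 in Control. The SRXN1 call was lost under both rescalings, without any 1 Control library, without C9ko 2, with the replicate block and with no filter (limma adjusted p 0.0436 to 0.262 over all alternatives). The TXNRD1 call was lost without C9ko 2 and with the replicate block (limma adjusted p = 0.0637 and 0.0913; 0.00798 to 0.0913 over all alternatives). The median of the 7 was -0.02.

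**Figure D4:**
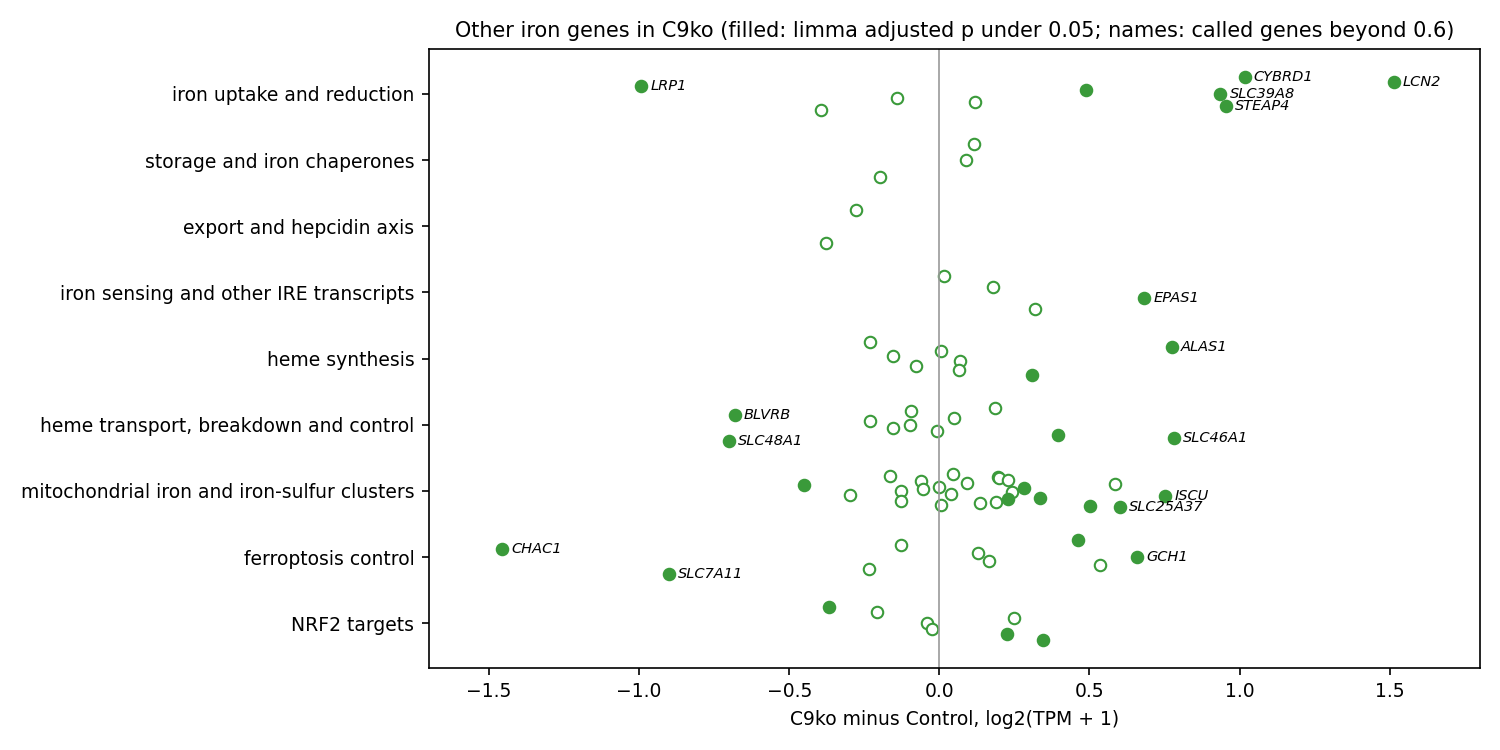
Difference between C9ko and Control in log2(TPM + 1) for the 78 tested iron genes of the other lists, grouped by role. Filled points passed the limma test (20 higher, 7 lower) and open points did not; called genes beyond 0.6 are named, with LCN2 farthest above at 1.51 and CHAC1 farthest below at -1.46.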

How the data were processed

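Strand-specific polyA RNA libraries of CAL27 cells were made by the dUTP method, per the labels' protocols. The authors deposited TPM values for 78894 Ensembl gene identifiers per sample; hg38 is named in the submitters' processing notes, and the aligner, quantifier, annotation and use of strand are not given in the sources used here. TPM keeps no depth, so no counting interval is given. Groups and replicate numbers came from sample titles. Files with identical values counted as 1 library (9 samples, 7 libraries). Symbols were matched for 61463 identifiers; positions came from GENCODE release 29.

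Values were tested as log2(TPM + 1) with limma 3.58.1 (R 4.3.3) over all 4 groups, with C9ko minus Control as contrast, a trended eBayes and Benjamini-Hochberg adjustment over 17100 genes with at least 1 TPM in at least 2 libraries; calls had an adjusted p-value under 0.05. The script was tested on simulated data. p-values measure the spread between these samples, which may be technical. For A2ko and A8ko, genes were counted that lay outside the Control range with a difference of 1 log2 unit or more. Members and lists were chosen with earlier results of these data known. Named were all members, per other list the 3 called genes that changed most with a mean of at least 5 TPM and every gene counted in A2ko or A8ko, the 3 genes most like each member spanning 1 log2 unit, ferritin pseudogenes at 1 TPM and overlapping genes; 1 gene that this rule names is not reported here. Alternatives were the pseudocount, the filter, both rescalings, leaving out libraries, a fit of Control and C9ko alone, the replicate block, pseudogene sums and the number of neighbours.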

Additional observations from a re-analysis of the deposited data

Results flagged for a closer look

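SLC11A2, the gene of the iron transporter DMT1, lay on opposite sides of the Control libraries in different knockouts. The A2ko log2 difference from Control was -0.16, that of A8ko 0.69 and that of C9ko 0.72, with the A2ko library below and the A8ko library and both C9ko libraries above all 3 Control libraries. The difference between the knockouts was not tested, and A2ko and A8ko are 1 library each.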

How the results depend on the processing

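Depth is unknown and A2ko and A8ko are 1 library each. Limma called 5038 genes in C9ko (7108 at an unadjusted p under 0.05); leaving out 1 library gave 3334 to 4204, fewest without C9ko 2. The share called higher, 74.8%, was 56.3% after rescaling by the median of ratios and 60.7% without mitochondrially encoded genes. Replicate numbers carry no stated pairing, and same-numbered deviations correlated at -0.05 and -0.01; a replicate block gave 3246 calls (and 19 among the other iron genes, against 27) and the cause was not tested. Genes counted in A2ko numbered 867, 1813 with a pseudocount of 0.1 and 380 with a mean of at least 5 TPM; in A8ko they numbered 809, 1689 and 412. Members above Control in all knockout libraries numbered 4. They numbered 2 after rescaling by the median of ratios, 3 without mitochondrially encoded genes and 4 to 5 when 1 library was left out. Of the genes named outside the set, BLVRB, SRXN1, TXNRD1 and UROS lost their call under at least 1 alternative, and none changed sign.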

Other observations

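A few other abundant genes differed widely between the C9ko libraries, and those given here were chosen after their values were seen. MIF-AS1, which overlaps MIF on the opposite strand, stood at 183, 184 and 247 TPM in Control, 243 in A2ko, 209 in A8ko, 3.46 in C9ko 1 and 247 in C9ko 2. MIF, a secreted cytokine gene, stood at 403, 412 and 339 TPM in Control, 358 in A2ko, 460 in A8ko, 1080 in C9ko 1 and 383 in C9ko 2. ENSG00000303745 stood at 957, 709 and 1024 TPM in Control, 8.58 in A2ko, 1255 in A8ko, 49.1 in C9ko 1 and 1344 in C9ko 2. FTH1 with BEST1 and MIF with MIF-AS1 are both pairs that overlap on opposite strands, and in C9ko 1 a low value of one stood with a high value of the other. Reads of MIF and MIF-AS1 may not be separable either, and the part of shared reads was not tested.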
